A study of Homo sapiens with 9 samples.

Results

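The SPARC, testican and follistatin-like genes were followed across HEK293 cells with reduced levels of SmcHD1 and control cells. The group holds 10 genes, SPARC, SPARCL1, SPOCK1, SPOCK2, SPOCK3, SMOC1, SMOC2, FSTL1, FSTL4 and FSTL5. Its members were found as every probe whose RefSeq accession belongs to one of these genes, which gave 13 of the 42405 probes on the array, and 10 of the 35196 genes. Of these, 10 probes of 8 genes passed the detection filter, set as a signal well above background on all arrays of 1 group or more, and could be compared. In counts and shares of all genes, here and below, an array label that matched no named gene counted as a gene of its own. The family was chosen by measured values of these same arrays, in which SPOCK3 and FSTL4 stood among the large differences from the control in both knock-downs. The differences of its members from the control are therefore given as a description, without p-values, and where a member is said to be called, this only marks that its values passed the thresholds applied to all genes and is no test of the member.

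HEK293 is a line derived from human embryonic kidney. Cells were infected with a retrovirus. It expressed, in KD3, shRNA 3 and, in KD4, shRNA 4, both directed at SmcHD1, and in CTL the shRNA NC5 as a control. All 3 groups carried the same vector, pQCXIP-GFP, were selected with puromycin and grown as stable lines, and received no further treatment. No source used here describes the lines as single clones. Each group was measured on 3 one-color Agilent arrays, which the methods call biological triplicates. Neither the labels nor the methods say whether these came from separate infections, so the spread between arrays may be partly technical. The question put to the members is how their transcripts differed between the control and each knock-down, and between the knock-downs.

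SPARC, also called osteonectin, is the founding member of a family of secreted matricellular glycoproteins, which bind the extracellular matrix and modulate how cells adhere to it rather than building it. Its relatives share a cysteine-rich follistatin-like domain and, in most of them, an extracellular calcium-binding domain. SPARCL1 (hevin) is the closest relative of SPARC, the testicans SPOCK1, SPOCK2 and SPOCK3 are proteoglycans best known from brain, SMOC1 and SMOC2 are modular calcium-binding proteins of basement membranes, and FSTL1, FSTL4 and FSTL5 are secreted follistatin-like proteins.

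SPOCK3 was higher in both knock-downs than in CTL, and SPOCK1 and FSTL4 were lower in both. SMOC2 was lower in KD4. FSTL1 in both knock-downs and SPARC in KD3 were higher by less than the 1.8-fold that a call required, SPARC in KD4 overlapped CTL, SPOCK2 and SMOC1 differed little or differently by probe, and SPARCL1 and FSTL5 were not well above background on nearly all arrays. A call needed a fold of at least 1.8 and a Benjamini-Hochberg adjusted p under 0.05 from a limma fit over all 9 arrays and all tested probes. By that rule 1 of the 8 genes compared was called higher in both knock-downs, against 0.823% of all 26862 genes tested, and 2 of the 8 were called lower in both, against 1.83%. One further member, SMOC2, was called lower in KD4 alone, where 3.53% of all genes were called lower. Nothing is read from these shares, since the family was selected on the same contrasts.

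The arrays resembled each other closely, with a correlation of at least 0.99 between arrays of a group, between 75.1% and 79.8% of probes well above background and no saturated spot, and precision is limited by there being 3 arrays a group. The arrays lay on 2 slides, each of which held arrays of all 3 groups. The SMCHD1 transcript itself was below its CTL range on each of the knock-down arrays. On its brightest probe the CTL arrays had a log2 signal of 11.26 ± 0.0942 (SD, n = 3), with 10.29 ± 0.122 in KD3 and 9.73 ± 0.0895 in KD4. That left 51.0% of the CTL level in KD3 (limma adjusted p = 0.000214) and 34.6% in KD4 (limma adjusted p = 1.81e-05). All 8 HEK293 markers reported (VIM, KRT8, KRT18, CDH2, NEFM, NEFL, PAX2 and EYA1) were well above background on every array. Of 6 fibroblast markers, 4 were well above background on every array and THY1 and FAP on none, and their summed signal was 785.9 to 899.1 in CTL, 631 to 691.3 in KD3 and 786.3 to 850.7 in KD4. Of 5 endothelial markers, 2 were detected on all arrays and PECAM1 on none, and their summed signal was lower in both knock-downs with no overlap, at 194.1 to 208.1 in CTL, 155.6 to 183.5 in KD3 and 171.8 to 189 in KD4. The 3 leukocyte markers with a probe summed to 333.1 to 383.7 in CTL, 377.3 to 390.1 in KD3 and 342 to 403.8 in KD4. Of 5 astrocyte markers, 3 were detected on all arrays, with a summed signal of 3023 to 3941 in CTL, 3694 to 4007 in KD3 and 2976 to 3180 in KD4. The part of these marker lists in the results below was not tested. In such bulk RNA, fewer cells with a transcript and less of it per cell cannot be told apart.

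The start regions of 4 members are printed to set 2 pairs of relatives side by side. SPOCK2 and SPOCK3 are testicans of which only the latter was called, and FSTL1 and FSTL4 are follistatin-like genes that lay on opposite sides of CTL. Each sequence holds 250 bases before and 50 bases after the outermost start of the gene in RefSeq on GRCh38.p14, written 5′ to 3′ on the strand of the gene, with every CG dinucleotide in capitals. Binding of SmcHD1 and DNA methylation at these regions were not measured on the arrays. The SPOCK2 region is chr10:72088983-72089282, the SPOCK3 region chr4:167234445-167234744, the FSTL1 region chr3:120450943-120451242 and the FSTL4 region chr5:133612492-133612791, all on the minus strand.
SPOCK2: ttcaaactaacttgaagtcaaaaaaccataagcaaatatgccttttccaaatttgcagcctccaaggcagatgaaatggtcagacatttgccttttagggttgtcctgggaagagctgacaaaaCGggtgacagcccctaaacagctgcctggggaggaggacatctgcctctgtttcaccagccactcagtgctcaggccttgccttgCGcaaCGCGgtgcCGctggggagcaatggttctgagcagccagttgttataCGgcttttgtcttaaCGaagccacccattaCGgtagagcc
SPOCK3: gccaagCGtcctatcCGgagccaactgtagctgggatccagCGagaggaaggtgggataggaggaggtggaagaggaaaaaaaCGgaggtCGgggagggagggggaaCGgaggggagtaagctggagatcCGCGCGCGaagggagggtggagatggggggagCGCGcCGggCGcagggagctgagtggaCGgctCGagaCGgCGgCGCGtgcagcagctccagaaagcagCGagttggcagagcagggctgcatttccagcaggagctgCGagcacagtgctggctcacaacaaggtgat
FSTL1: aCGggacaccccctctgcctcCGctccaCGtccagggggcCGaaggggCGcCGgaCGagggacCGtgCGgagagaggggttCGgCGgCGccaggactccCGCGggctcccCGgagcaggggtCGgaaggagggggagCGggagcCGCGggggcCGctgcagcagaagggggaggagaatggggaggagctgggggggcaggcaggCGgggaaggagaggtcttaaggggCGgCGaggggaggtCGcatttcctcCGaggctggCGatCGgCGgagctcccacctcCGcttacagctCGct
FSTL4: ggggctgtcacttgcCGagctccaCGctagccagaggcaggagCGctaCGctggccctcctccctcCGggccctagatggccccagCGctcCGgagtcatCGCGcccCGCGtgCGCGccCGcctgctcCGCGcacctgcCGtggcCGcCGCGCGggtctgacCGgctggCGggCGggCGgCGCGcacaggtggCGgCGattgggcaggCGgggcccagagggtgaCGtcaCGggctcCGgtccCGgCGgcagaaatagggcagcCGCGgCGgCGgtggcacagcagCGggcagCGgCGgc

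The FSTL4 region held 42 CG dinucleotides, more than 94.2% of the 35116 RefSeq promoters of the same length, whose median was 14. The FSTL1 region held 30, more than 77.6% of all promoters. A relation of CG content to the differences from CTL was not tested. The SPOCK3 region held 22, more than 62.3% of promoters, and that of SPOCK2 held 8, more than 39.3%. RefSeq gives further starts for both, whose regions held 23 and 13 in SPOCK3 and 13 in SPOCK2, so that the contrast between these testicans depends on the start taken. CG was absent from 3.96% of all promoters. RefSeq regions were found for 9 of the 10 genes, with SPOCK1 the one not matched. The other members ranged from 2 CG dinucleotides in SPARCL1 to 28 in SMOC2. The letters TATAAA, sought on both strands, were found in the regions of SMOC1 and SPARCL1 and in 11.5% of all promoters. These counts describe the letters of the regions and were not related to binding of any factor.

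The testicans carry heparan or chondroitin sulfate chains, and their best described activity is on matrix metalloproteinases and cathepsins. SPOCK3 was higher in both knock-downs. Its normalized log2 signal was 1.23, 1.14 and 1.27 on the CTL arrays, where it was not well above background on any. In KD3 it was 5.49, 4.64 and 4.49, and in KD4 it was 6.63, 6.39 and 6.44, well above background on all 6 arrays. The 3 groups did not overlap, and their order was CTL, KD3, KD4. On the scale of the scanner these are dim values in CTL and KD3, with a processed signal of 2.26 to 2.52 in CTL, 23.1 to 39.2 in KD3 and 72.4 to 87.9 in KD4.

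Because SPOCK3 was not well above background in CTL, its fold was set against a floor, for each CTL array the dimmest signal that still counted as detected there, or the probe's own signal if larger. The ratio of SPOCK3 to this floor was 5.69 for KD3 and 17.4 for KD4. These ratios are estimates and not lower bounds, since a probe can stay undetected at a signal above the floor. On CTL replicate 3 a SMOC2 probe was not well above background at a log2 signal of 3.20, where the dimmest detected signal was 2.41. The differences of the fitted log2 means were 3.66 and 5.27 (SE 0.228), values that depend on the surrogate signal the scanner software gives to dim spots. SPOCK3 passed the detection filter only through the knock-down arrays, and a single probe measures it. On the slide with 2 CTL arrays the log2 difference from CTL was 3.43 in KD3 and 5.21 in KD4, and on the other slide it was 3.76 and 5.41. With normexp background correction the log2 differences were 0.55 and 1.26, and the call in KD3 was lost.

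SPOCK1, or testican-1, was lower in both knock-downs. Its log2 signal was 8.74, 8.67 and 8.70 in CTL, 7.88, 7.68 and 7.61 in KD3, and 7.46, 7.58 and 7.34 in KD4. Every knock-down array lay below every CTL array, by a margin far wider than the spread within a group. The log2 difference from CTL was −0.98 in KD3 and −1.24 in KD4 (SE 0.0925), which left 50.7% and 42.2% of the CTL level. The probe was detected on all 9 arrays, and its 2 spots on an array were 0.0210 to 0.329 apart on the log2 scale. On the 2 slides the log2 difference was −1.01 and −0.99 in KD3 and −1.22 and −1.28 in KD4. The KD3 value, 1.97-fold, lay just inside the fold required, and it fell short of it with normexp correction, at a log2 difference of −0.82.

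SPOCK2, the third testican, was measured by 2 probes that did not move alike. On the probe for NM_014767 the log2 signal was 8.40, 8.59 and 8.28 in CTL, 8.91, 8.76 and 8.82 in KD3, and 8.63, 8.87 and 8.75 in KD4. The knock-down arrays all lay above CTL, with log2 differences of 0.41 in KD3 and 0.32 in KD4 (SE 0.101). On the probe for NM_001134434 the 3 groups overlapped, with all arrays between 8.11 and 8.59 and log2 differences of 0.01 and 0.08 (SE 0.133). Neither probe reached the fold required. The 3 testicans thus differed from CTL in different directions, SPOCK3 upward, SPOCK1 downward and SPOCK2 by a small amount on 1 of its probes.

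**Figure D1:**
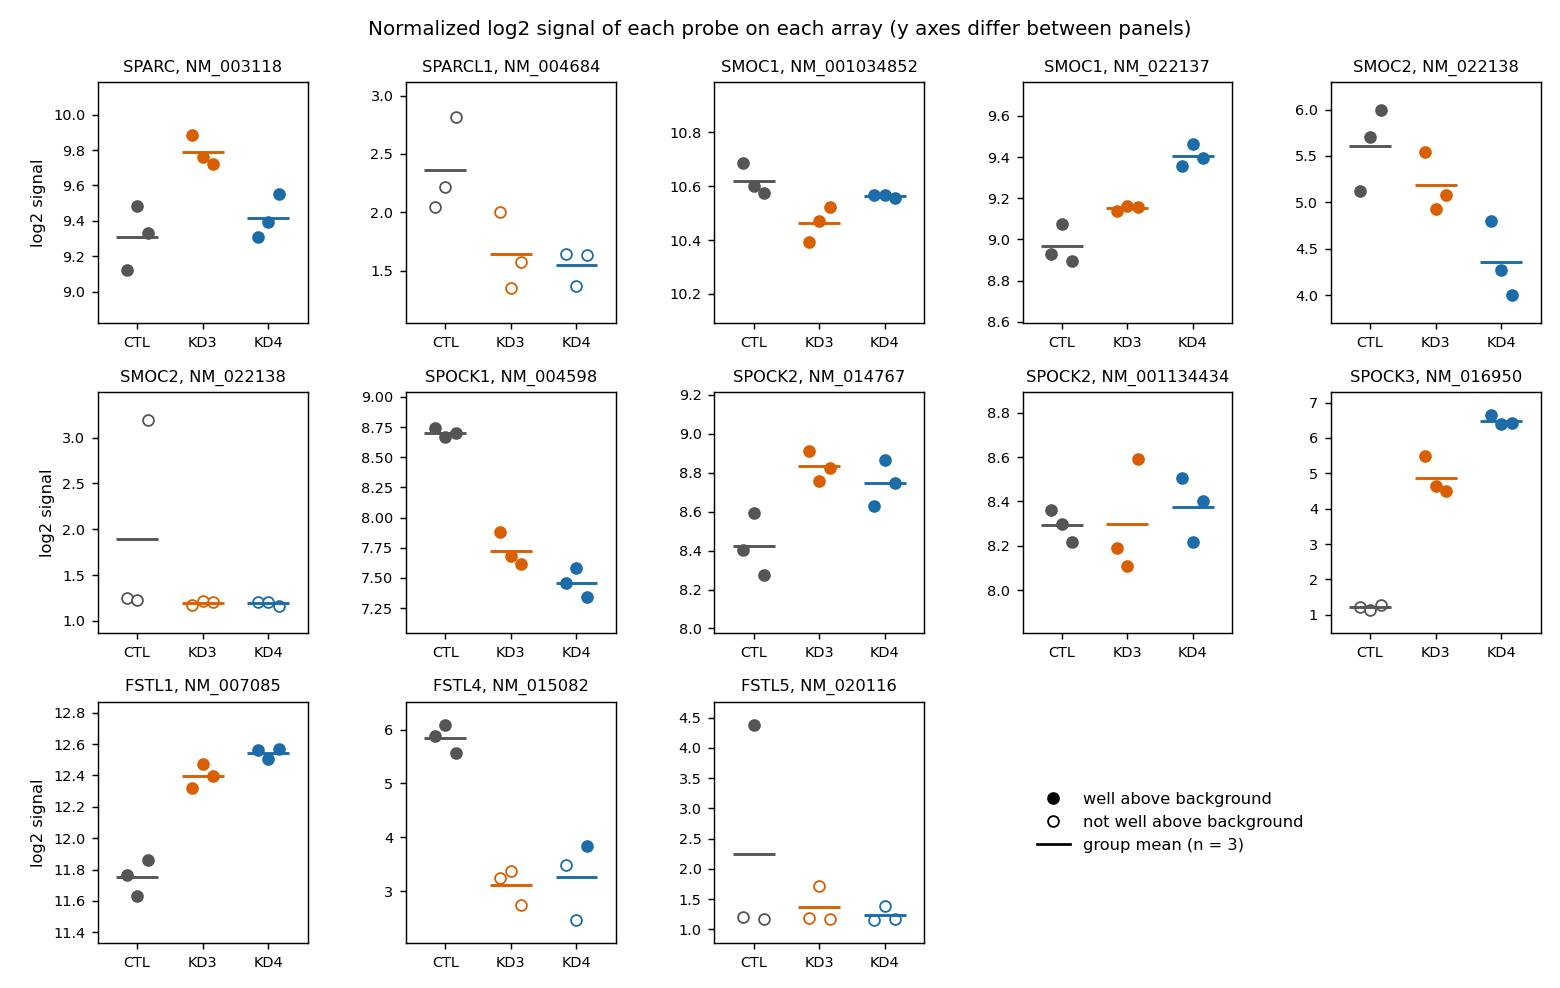
Normalized log2 signal of each of the 13 probes on each of the 9 arrays, in CTL, KD3 and KD4. Each point is an array, filled where the probe was well above background, and the line is the mean of the 3 arrays of a group; the y axes differ between panels. SPOCK3 lies between 1.14 and 1.27 in CTL and between 4.49 and 6.63 in the knock-downs, whereas FSTL4 lies between 5.57 and 6.08 in CTL and at 3.83 or below in the knock-downs.

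Among the follistatin-like genes, FSTL4 was lower in both knock-downs. It encodes a secreted protein with follistatin-like and immunoglobulin-like domains. Its log2 signal was 5.88, 6.08 and 5.57 in CTL, well above background on all 3 arrays. It was 3.25, 3.37 and 2.74 in KD3, well above background on none, and 3.50, 2.48 and 3.83 in KD4, well above background on replicate 3 alone. The knock-down arrays all lay at least 1 log2 unit below the lowest CTL array, and the KD3 and KD4 arrays overlapped. The processed signal was 46.8 to 73.5 in CTL, 6.68 to 11.4 in KD3 and 7.04 to 12.9 in KD4.

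FSTL4 was 6.61-fold lower in KD3 than in CTL by the group means. Its own signals exceeded the lowest detected signal on each KD3 array, so the floor did not change this value. It is an estimate and not a lower bound. The log2 difference was −2.72 in KD3 and −2.57 in KD4 (SE 0.328). On the 2 slides it was −2.46 and −2.88 in KD3, and −2.67 and −2.38 in KD4. With normexp correction it was −0.80 in KD3 and −0.78 in KD4, under the fold required in both. A single probe measures FSTL4, and it entered the comparison through the CTL arrays alone.

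FSTL1, a secreted glycoprotein that binds BMP ligands and has been studied in inflammation and heart repair, was a bright probe and higher in both knock-downs. Its log2 signal was 11.77, 11.63 and 11.86 in CTL, 12.32, 12.47 and 12.39 in KD3, and 12.56, 12.50 and 12.57 in KD4. All knock-down arrays lay above all CTL arrays. The log2 difference was 0.64 in KD3 and 0.79 in KD4 (SE 0.0789), or 1.56-fold and 1.73-fold. Both were short of the 1.8-fold required for a call, and only the KD4 value was close to it. It was 0.72 and 0.59 on the 2 slides in KD3 and 0.79 on both in KD4, so that the position of FSTL1 above CTL was found within each slide. FSTL1 and FSTL4, which share a name and a domain, therefore lay on opposite sides of CTL.

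FSTL5 was not compared. Its log2 signal lay between 1.16 and 1.72 on 8 arrays, not well above background on any of them, and at 4.37 on CTL replicate 2, the only array on which it was well above background.

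SPARC was well above background on all arrays. Its log2 signal was 9.12, 9.48 and 9.33 in CTL, 9.88, 9.76 and 9.72 in KD3, and 9.31, 9.40 and 9.55 in KD4. The KD3 arrays lay above all others, while KD4 overlapped CTL. The log2 difference from CTL was 0.48 in KD3 and 0.11 in KD4 (SE 0.108), neither of which reached the fold required. None of the 89 SPARCL1 spots over the 9 arrays was well above background. Its mean log2 signal was 2.05, 2.22 and 2.81 in CTL and between 1.35 and 2.00 in the knock-downs, while its spots on a single array ranged over 0.498 to 1.801, so that no comparison was made.

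SMOC2, a matricellular protein of basement membranes, was dim and variable. Its detected probe read 5.12, 5.71 and 5.99 in CTL, 5.55, 4.93 and 5.07 in KD3, and 4.80, 4.27 and 4.00 in KD4. All KD4 arrays lay below all CTL and KD3 arrays, and KD3 overlapped CTL. The log2 difference was −0.42 in KD3 and −1.25 in KD4 (SE 0.275), the latter 42.0% of the CTL level. On the first slide the KD4 value was −1.72 (2 KD4 and 2 CTL arrays), and on the second −0.32 (1 and 1). The KD3 value was −0.92 on the first (1 KD3 and 2 CTL arrays) and 0.19 on the second (2 and 1). With so few arrays, a difference between slides cannot be told from the spread between single arrays. With normexp correction the KD4 difference was −0.42 and was not called. The second SMOC2 probe was detected on no array.

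SMOC1, which antagonizes BMP signaling, was measured by a pair of well detected probes that differed in direction. The probe for NM_001034852 read 10.69, 10.60 and 10.57 in CTL, 10.39, 10.47 and 10.52 in KD3, and 10.57, 10.57 and 10.56 in KD4. Its log2 differences were −0.16 in KD3 and −0.06 in KD4 (SE 0.0658). All knock-down arrays lay below all CTL arrays here, in KD4 only narrowly, with a highest value of 10.568 against a lowest of 10.574 in CTL. The probe for NM_022137 read 8.93, 9.07 and 8.89 in CTL, 9.14, 9.16 and 9.16 in KD3, and 9.36, 9.46 and 9.40 in KD4. Its log2 differences were 0.19 and 0.44 (SE 0.0708), with no overlap between groups. A single direction cannot be given for SMOC1, since its probes lay on either side of CTL.

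**Figure D2:**
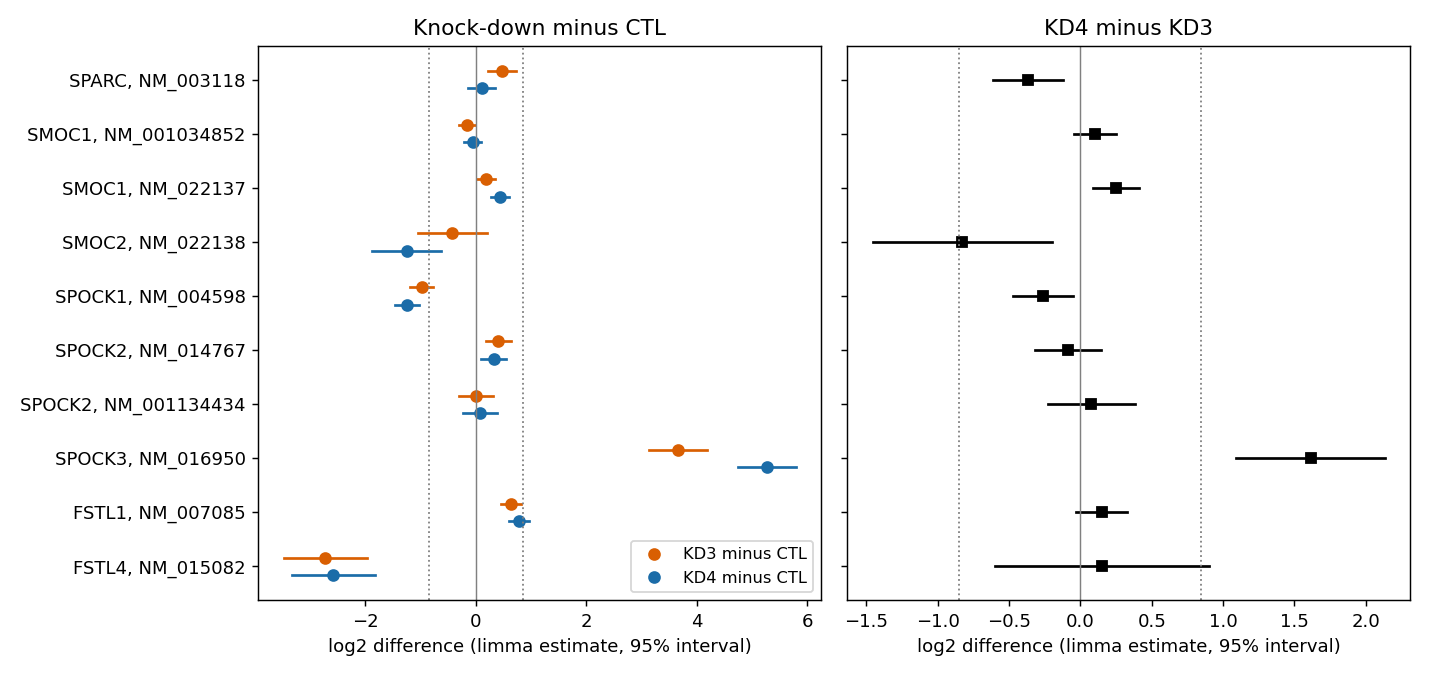
Log2 difference between group means for the 10 compared probes, KD3 and KD4 against CTL on the left and KD4 against KD3 on the right. Points are limma estimates, bars are 95% intervals and dotted lines mark the 1.8-fold required for a call. Because the family was chosen on the contrasts on the left, the intervals there are descriptive and no test. The contrast on the right shares the knock-down arrays with that choice. SPOCK3 lies at 3.66 and 5.27 and FSTL4 at −2.72 and −2.57 on the left, and on the right SPOCK3, at 1.61, is the only probe past the line.

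The knock-downs were also compared with each other, in a test that uses the same knock-down arrays as the contrasts that chose the family. SPOCK3 was picked partly for its values on these arrays and passed the detection filter through them alone, so its p-value is not independent of that choice. SPOCK3 was the only member called, against 0.503% of all genes called in either direction. Its log2 signal was 1.61 higher in KD4 than in KD3 (SE 0.228, 95% interval 1.09 to 2.13, limma adjusted p = 0.0123), or 3.06-fold, and every KD4 array lay above every KD3 array. Within the slides the difference was 1.77 and 1.65. The call depended on the settings: over the alternatives the difference ranged from 0.71 to 1.92 and the adjusted p from 0.000708 to 0.29. It was lost without KD3 replicate 2 (1.50, limma adjusted p = 0.0534), with normexp correction, where the difference of 0.71 was under the fold required, and by the methods' t-test with adjustment.

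The SMCHD1 transcript itself was lower in KD4, where its 3 probes were 0.51 to 0.56 below KD3 on the log2 scale. The arrays did not overlap, and the limma adjusted p-values were 0.0141 to 0.0902. None of these probes reached the 1.8-fold required for a call, and SmcHD1 protein was not measured on the arrays. A relation of the SMCHD1 level to the members was not tested. The other members had no call between the knock-downs. SMOC2 was −0.83 (SE 0.275, 95% interval −1.46 to −0.20, limma adjusted p = 0.154) and SPARC −0.37 (SE 0.108, 95% interval −0.62 to −0.12, limma adjusted p = 0.115). SPOCK1 was −0.26 (95% interval −0.47 to −0.05, limma adjusted p = 0.171). FSTL1 was 0.15 (95% interval −0.03 to 0.33) and FSTL4 also 0.15, with a wider interval from −0.60 to 0.90. These intervals do not show that the knock-downs were alike for these genes.

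The other genes of the pathway were taken from 4 lists of 106 genes, of which 93 could be tested, with p-values adjusted over all probes. The lists were chosen with earlier results of these arrays known, so the p-values of their genes are not independent of that knowledge. Against CTL, 1 of the 93 was called higher in both knock-downs and 4 were called lower in both, where 0.823% and 1.83% of all genes were. The median log2 difference over the 93 genes was −0.224 in KD3 and −0.184 in KD4, beside 0.00906 and 0.0437 over all genes tested.

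Among other genes with a follistatin-like domain, 11 of 14 were tested, 0 were called higher and 2 lower in both knock-downs, and the median log2 difference was −0.402 in KD3 and −0.629 in KD4. Follistatin itself, FST, the secreted antagonist of activin that gives the domain its name, fell from 8.74 ± 0.143 in CTL to 7.04 ± 0.0828 in KD3 and 6.92 ± 0.0883 in KD4 (SD, n = 3). Its log2 differences were −1.70 and −1.82 (SE 0.0925, limma adjusted p = 1.49e-05 and 8.83e-06). IGFBP7, which binds insulin-like growth factors, fell from 9.78 ± 0.397 to 6.86 ± 0.286 in KD3 and 7.65 ± 0.058 in KD4, by log2 differences of −2.92 and −2.13 (SE 0.202, limma adjusted p = 4.82e-05 and 0.000194). These were the only genes of the list below CTL by the rule in both. The serine protease HTRA1 and KAZALD1 were called lower in KD4 alone, at −1.12 (SE 0.168, limma adjusted p = 0.00175) and −1.11 (SE 0.0832, limma adjusted p = 5.67e-05), and were named after their values were seen. In KD3 KAZALD1 was at −0.76 and HTRA1 at −0.22. A call in a single knock-down does not show that KD3 and KD4 differed.

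Among other matricellular proteins, 16 of 22 were tested, and 1 was called higher and 1 lower in both knock-downs, with a median log2 difference of −0.345 in KD3 and −0.247 in KD4. The gene called higher was SRPX2, a secreted sushi-repeat protein, whose rise was already known from earlier results of these arrays, so that its values are a description and no p-value is given. It read 2.94 ± 0.719 in CTL, where 1 of 3 arrays was well above background, 6.09 ± 0.133 in KD3 and 7.32 ± 0.0472 in KD4. It passed the detection filter through the knock-down arrays alone, and its log2 differences of 3.15 and 4.38 (SE 0.294) rest on a dim CTL signal. The gene called lower was FBLN5, a fibulin of elastic fibers, by −1.03 and −1.15 (SE 0.136, limma adjusted p = 0.00136 and 0.000598). CCN5 and the thrombospondin THBS4 were called lower in KD4 alone, at −0.94 (limma adjusted p = 0.00954) and −0.996 (limma adjusted p = 0.000113). In KD3 they were at −0.73 and −0.77, and both were named after their values were seen. CCN5 was dim, with a log2 signal of 4.62 in CTL and 3.68 in KD4.

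Collagens, metalloproteinases, cathepsins and growth factors known to meet SPARC or the testicans formed the third list, of which 22 of 25 were tested. None was called higher, 1 was called lower in both knock-downs, and the median log2 difference was −0.346 in KD3 and −0.247 in KD4. MMP24, a membrane-anchored metalloproteinase, fell from 9.00 ± 0.174 in CTL to 6.71 ± 0.109 in KD3 and 7.52 ± 0.105 in KD4, by −2.29 and −1.48 (SE 0.107, limma adjusted p = 8.65e-06 and 4.68e-05). MMP2, the gelatinase, was called lower in KD3, at −1.17 (SE 0.197, limma adjusted p = 0.00428), was at −0.83 in KD4, just short of the fold required, and was named after its values were seen. It was dim, with a log2 signal of 4.45 in CTL and 3.28 in KD3, where 2 of 3 arrays were well above background.

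The fourth list held ligands, receptors, SMADs, antagonists and other genes of the BMP, activin and FSTL1 pathways. It showed 0 calls in both knock-downs among 44 tested genes of 45. The list leaves out the activin antagonist FST, which was counted with the follistatin-like domain above and was called lower in both knock-downs. The median log2 difference was −0.0735 in KD3 and −0.0539 in KD4. In KD4 alone the ligands BMP6 and INHBE were called lower, at −0.85 (limma adjusted p = 0.000504) and −0.998 (limma adjusted p = 0.0107), and the BMP antagonist GREM1 was called higher, at 0.87 (limma adjusted p = 0.0234). These 3 were named after their values were seen. In KD3 BMP6 was at −0.76, INHBE at −0.69 and GREM1 at 0.77. INHBE was dim, with a log2 signal of 4.46 in CTL and 3.46 in KD4, where 2 of 3 arrays were well above background. The called GREM1 probe was also dim, at 4.39 in CTL and 5.25 in KD4, and its other probe was detected on no array.

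**Figure D3:**
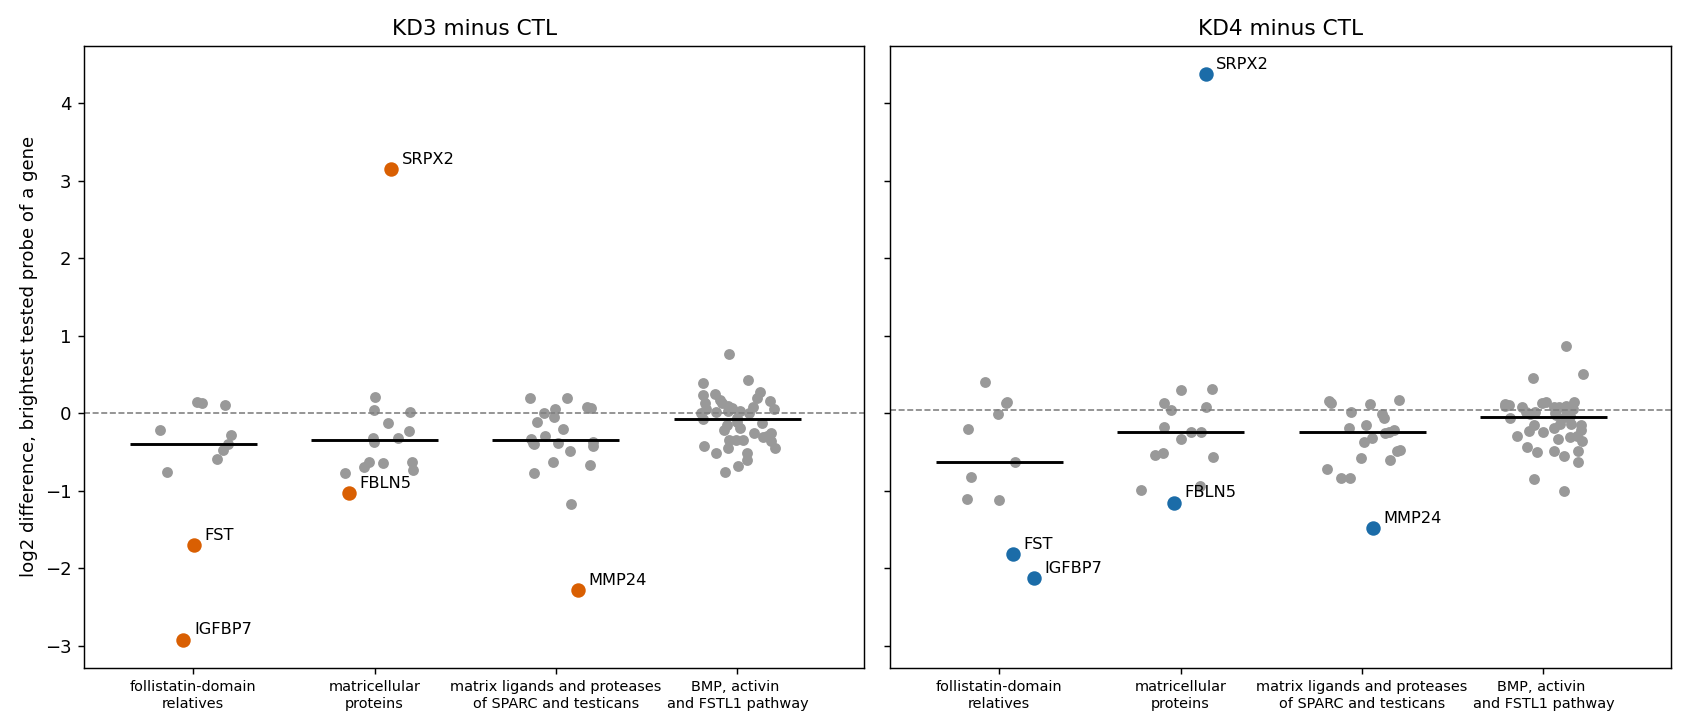
Log2 difference from CTL of the brightest tested probe of each gene in the 4 related lists, KD3 on the left and KD4 on the right. Each point is a gene, black bars are list medians, the dashed line is the median of all genes tested, and colored, named points were called in both knock-downs. FST, IGFBP7, FBLN5 and MMP24 lie between −2.92 and −1.03, and SRPX2 lies at 3.15 and 4.38.

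The genes next to the members called in both knock-downs were compared, in the order of the GRCh38.p14 gene table, 3 protein-coding genes on each side. Of these neighbours, 12 could be tested, and none of the 12 was called in both knock-downs, where 0.823% of all genes were called higher and 1.83% lower. Beside SPOCK3 on chromosome 4, MSMO1 and CPE were not called, and ANXA10 and DDX60L were not tested. TLL1, an astacin-like protease, was at −0.56 in KD3 and called lower in KD4, at −0.91 (SE 0.276, limma adjusted p = 0.0378). DDX60, an interferon-inducible helicase, was at −0.85 in KD3, just short of the fold required, and was called lower in KD4, at −1.75 (SE 0.186, limma adjusted p = 0.000346). SPOCK3, around which this stretch was taken because of its call, was the only gene called higher among those tested in it. Of its neighbours, 2 were called lower in KD4, where 3.53% of all genes were called lower.

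Around SPOCK1 on chromosome 5, SMAD5, KLHL3 and HNRNPA0 were tested and not called, TRPC7 and MYOT were not tested and SMIM32 had no named probe. KLHL3 was at −0.51 in KD4 (limma adjusted p = 0.0414), under the fold required. Around FSTL4 on the same chromosome, AFF4, ZCCHC10, HSPA4, C5orf15 and VDAC1 were tested and not called, and LOC124901069 had no named probe. HSPA4 was farthest from CTL among them, at 0.55 in KD4 (SE 0.0911, limma adjusted p = 0.00294). SPARC is also on chromosome 5, and SPARCL1 and FSTL5 are on chromosome 4 with SPOCK3.

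**Figure D4:**
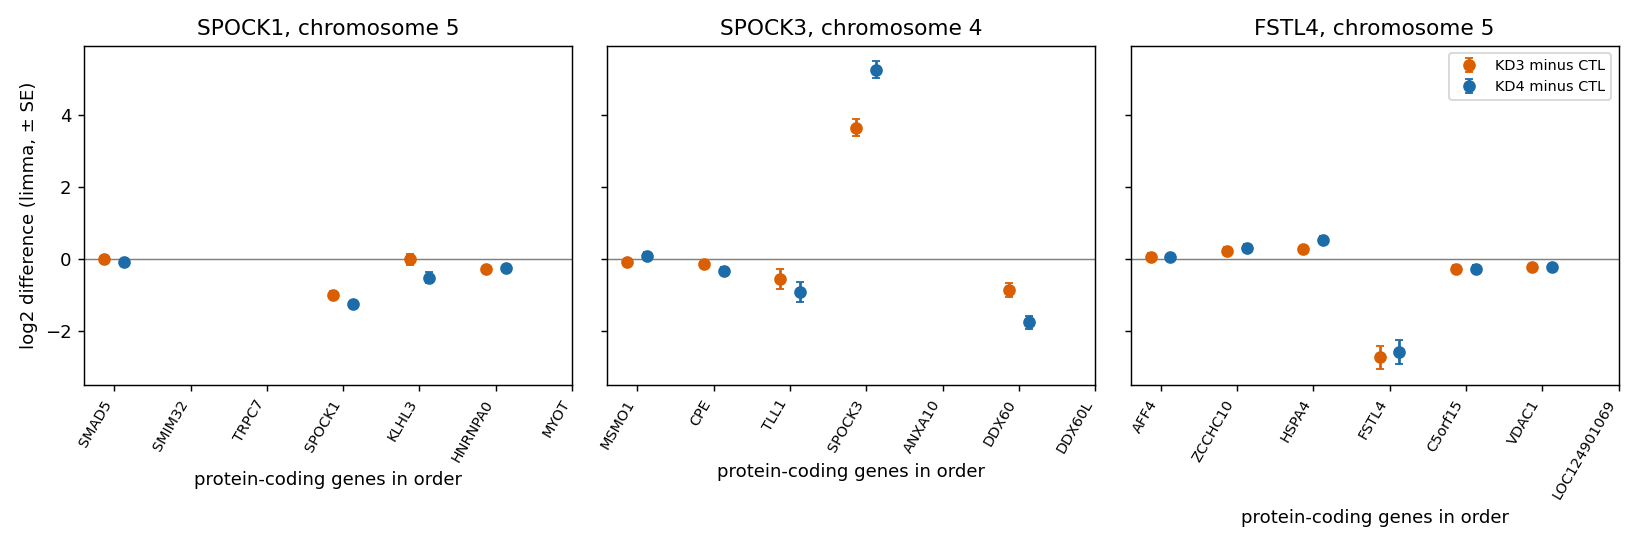
Log2 difference from CTL, with its limma SE, of SPOCK1, SPOCK3 and FSTL4 and of the 3 protein-coding genes on each side, in chromosome order and not to scale. Orange points are KD3 and blue points KD4, and a name without points was not tested or had no probe. SPOCK3 lies at 3.66 and 5.27, FSTL4 at −2.72 and −2.57 and SPOCK1 at −0.98 and −1.24. Of the neighbours, DDX60, at −0.85 and −1.75, is the farthest from 0. The 3 members were taken because they were called, so their distance from their neighbours follows from that choice.

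The genes whose profile was most like that of a called member were ranked by Pearson's r of log2 signal over the 9 arrays, among 16074 named genes, each by its brightest probe. The arrays fall into 3 groups, so that r mostly reflects the group means, and it is given as a description. For SPOCK3 these were FGF13 (0.994), HUS1B (0.994), MAGEH1 (0.993), FAM83D (0.992) and CTNND2 (0.990). MAGEH1 had log2 differences of similar size to SPOCK3, 3.70 in KD3 and 5.28 in KD4, and those of FGF13 were 0.59 and 0.80. For SPOCK1 they were TACC2 (0.995), GNE (0.995), ARHGEF6 (0.994), KRTDAP (0.993) and PCNA (0.993), with TACC2 at −1.42 and −1.71 and PCNA at −0.36 and −0.42. For FSTL4 they were ARHGEF10L (0.985), LCN15 (0.982), GATA3 (0.980), KLHL29 (0.980) and AXIN2 (0.979), of which LCN15 was farthest from CTL, at −0.88 and −0.86.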

How the data were processed

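Total RNA from 3 HEK293 lines was hybridized to 9 one-color Agilent arrays. The authors deposited scanner files made with Agilent Feature Extraction 10.10.1.1, which hold background-subtracted spot intensities and a surrogate value for dim spots, and a table of log2 values normalized in GeneSpring, which was used as an alternative. The methods' quintile normalization was read as quantile. Here control spots and outlier spots (260 to 634 of 58717 per array) were left out, log2 intensities were quantile normalized and spots of a probe averaged, and 21 probes lacking a value were dropped, with limma 3.58.1 in R 4.3.3. A probe was well above background where at least 0.5 of its spots were. Tested were 32276 probes of 26862 genes, in 1 limma fit over all arrays with Benjamini-Hochberg adjustment, after a check on simulated data. Probes were named through a RefSeq accession (25422 probes) and a GRCh38.p14 gene table. Where no name was found, the array's own label was counted as a gene, so the counts of all genes include unnamed labels. Probe positions are not given, since the array was designed on another build.

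The members, the 4 related lists and the tests were chosen with earlier results of these data known, SRPX2 among them. One gene of the marker lists is not reported here. Named are all members, SMCHD1, list genes called in both knock-downs (at most 6 a list), the 5 genes most alike to a member called in both, and its 3 neighbours on each side. Alternatives were 75th percentile scaling, normexp (offset 50), the authors' values, no filter or a filter on all 9 arrays, the methods' t-test, adjusted or not, each pair of groups alone, replicate or slide as a block, no fold threshold, the brightest probe alone, and leaving out each array.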

Additional observations from a re-analysis of the deposited data

Results flagged for a closer look

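SPOCK3 passed the thresholds in the comparison of the knock-downs with each other, with a log2 signal 1.61 higher in KD4 than in KD3 (SE 0.228, limma adjusted p = 0.0123). SPOCK3 was picked partly for its values on these same arrays and passed the detection filter through them alone, so the p is not independent of that choice. Each KD4 array lay above each KD3 array. The SMCHD1 transcript was lower on each KD4 array than on each KD3 array, but a relation of SPOCK3 to it was not tested. The shRNA and the SMCHD1 level differ together between these groups and cannot be told apart. The call was lost without KD3 replicate 2, where the difference was 1.50 (limma adjusted p = 0.0534). Over the alternatives the adjusted p ranged from 0.000708 to 0.29.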

How the results depend on the processing

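Counts of members against CTL describe how values of a family chosen on these contrasts pass the thresholds, and support nothing. The members called higher in both knock-downs (1) numbered 0 with normexp, 0 with a filter on all 9 arrays, 0 by the methods' t-test with adjustment and 3 with no fold threshold. Those lower in both (2) numbered 0, 1 and 0 under the first 3 of these. By the t-test with adjustment the calls of SPOCK1 and SPOCK3 in KD3 and of FSTL4 and SMOC2 in KD4 were lost. The member called between the knock-downs (1) was lost under the same 3 (0 called), and without an array the count ranged from 0 (without KD3 replicate 2) to 1. Normexp adds an offset of 50, above the processed signals of SPOCK3 in KD3 and of FSTL4 in the knock-downs, and so shrinks differences of dim probes by construction, while the filter on all arrays removes SPOCK3 and FSTL4 from the test. In the related lists, the count called higher in both (1) was 0 with the filter on all arrays, 0 by the t-test with adjustment, 3 with no fold threshold, and 1 to 2 without an array, the 2 without KD3 replicate 1. The count called lower (4) was 3 with normexp, 5 with the authors' values and 5 with no filter on dim probes. It was 2 by the t-test with adjustment and 29 with no fold threshold, and 4 to 6 without an array. The cause of the other changes was not tested. Same-numbered arrays deviated from their group means with correlations of −0.0775 to 0.143, so the numbers were not taken as pairs, and with the replicate block the counts of members were 1 higher and 2 lower, as without it. That block moved no other count, and 5 of 9 arrays lay closest to their own number. SPOCK3 in CTL, FSTL4 in the knock-downs, FSTL5 and SPARCL1 are limited by their low signal. The same holds in the related lists for SRPX2 in CTL and for CCN5, MMP2, INHBE and GREM1.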
